A study of Rattus norvegicus with 20 samples.

Results

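The comparison described here set the 9 rats fed a diet with a stilbene against the 10 rats fed a diet without one. The stilbene rats were the 5 rats on CSAA+PTS and 4 of the 5 rats on CSAA+RSV, and the non-stilbene rats were the 5 rats on CSAA and the 5 on CSAA+CGA. The members were therefore 19 of the 20 sequenced rats, and RSV Rat4 was left out because its library held 861072 counts, against 24036703 to 36743103 in the other 19. All rats were wild-type male Fischer 344 rats, an inbred strain, labelled as 8 weeks of age. CSAA is a choline-sufficient diet with defined amino acids, and all rats ate it for 20 days. PTS rats received it with pterostilbene at 1.34 g per kg of diet, RSV rats with resveratrol at 1.2 g per kg, and CGA rats with chlorogenic acid at 1.9 g per kg, doses stated to be equimolar. RNA from whole blood was sequenced from 1 library per rat. Rats were housed in pairs, and the labels do not tie rats to cages. The question was which transcripts moved together under both stilbenes, relative to control diet and to a diet with a polyphenol of another class.

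Resveratrol and pterostilbene are plant stilbenes, and pterostilbene carries methoxy groups where resveratrol carries hydroxyl groups. Chlorogenic acid is a polyphenol of coffee and many fruits without a stilbene core. Stilbenes are known in other systems for effects on sirtuin deacetylases, on the antioxidant regulator Nrf2, on the aryl hydrocarbon and estrogen receptors and on inflammatory signalling. Whole blood mixes leukocytes, platelets and red cells. Hemoglobin transcripts come mostly from reticulocytes, the young red cells that still hold RNA. Interferon-stimulated genes are switched on in many blood cells by type I interferon through the STAT and IRF factors. In such bulk RNA, fewer cells of a type and less RNA per cell cannot be told apart.

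The Rat5 library of every diet had counts for 25104 to 29543 genes, against 19600 to 23632 genes in the other 15 libraries. Of the variance along the first principal component (42.4% of all variance), 81.1% lay between the Rat5 libraries and the rest. Each diet had 1 Rat5, so results are also given for the 15 rats without them. The labels do not say what the Rat5 rats share. Blood markers were present in every library: the summed T cell markers reached 464 to 620 CPM (counts scaled by edgeR to a common library size) in stilbene rats and 478 to 615 CPM in non-stilbene rats, and the summed B cell markers 180 to 319 CPM in stilbene rats and 224 to 324 CPM in non-stilbene rats.

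Pooled over both compounds, the stilbene diets went with lower hemoglobin transcripts, with lower levels of genes such as Lgals3bp, Bin1 and Atg9a, and with slightly higher levels of Txndc12, Ctsc and Txnl1. None of these differences passed the correction over all genes. The edgeR quasi-likelihood test called 0 of 16734 genes at an FDR of 0.05 (0% called, lowest adjusted p 0.539). An unadjusted edgeR p under 0.05 was reached by 1522 genes (9.10%), of which 789 (4.71%) were lower and 733 (4.38%) were higher. DESeq2 called 0 genes and limma called 0, and the same unadjusted limit was passed by 1652 (9.87%) in DESeq2 and 2308 (13.8%) in limma. Without the Rat5 libraries edgeR again called 0 genes, with a lowest adjusted p of 0.145, while 3096 genes (18.5%) had an unadjusted p under 0.05. Below, a gene of a list is called lower or higher where its unadjusted edgeR p was under 0.05, its log2 fold change is given with the SE of the fit, and no such gene had an adjusted p under 0.539. Genes picked by their rank are the extremes of that ranking. Of all genes, 44.5% had a log2 fold change below 0 and 55.5% one above 0. The median log2 fold change (stilbene over non-stilbene) of all genes was 0.03, so the fold changes given below needed no recentring.

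The 12 genes with the lowest p among those lower in stilbene rats had log2 fold changes of -0.29 to -0.95. All 12 were lower in each of the 4 single differences between a stilbene diet and a diet without one. These genes were picked by the pooled difference, and the 4 single ones are its parts. Their like signs were therefore largely set by the picking. By diet means, 22.7% of all genes were lower with both stilbenes than with both other diets. Fam78a had the lowest p of the 12 genes. Its level ran from 11.1 to 15.2 CPM (median 13) in stilbene rats and from 13.7 to 18 CPM (median 16.4) in non-stilbene rats, a log2 fold change of -0.29 (SE 0.0671). All 9 stilbene rats lay below the median of the others, and 5 lay below every one of them. Lgals3bp, a secreted galectin-binding glycoprotein induced by interferon, measured 20.8 to 57.6 CPM (median 37.2) in stilbene rats and 27.4 to 75.6 CPM (median 60.3) in non-stilbene rats (log2 fold change -0.69, SE 0.176). CGA Rat5 held 27.4 CPM and the next non-stilbene rat 52.0 CPM, a level that only 1 stilbene rat exceeded, at 57.6 CPM. Bin1, a BAR-domain protein that bends membranes, ran from 10.7 to 22.3 CPM (median 17) in stilbene rats, against 19.5 to 24.5 CPM (median 22) in non-stilbene rats (log2 fold change -0.38, SE 0.0989). Of the stilbene rats, 7 lay below the whole non-stilbene range. Atg9a, a lipid scramblase of the forming autophagosome, ranged from 5.32 to 9.84 CPM (median 7.85) in stilbene rats and from 8.37 to 13 CPM (median 10.6) in non-stilbene rats (log2 fold change -0.43, SE 0.11).

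The other genes of this ranking were followed by diet. Dpf2, a subunit of BAF chromatin remodelling complexes, averaged 6.04 ± 1.26 CPM with PTS and 7.30 ± 1.40 CPM with RSV, against 9.30 ± 0.585 CPM with CSAA and 8.94 ± 1.95 CPM with CGA (SD over rats). Rcc2, which takes part in assembly of the mitotic spindle, averaged 4.67 ± 0.397 and 5.36 ± 1.03 CPM with PTS and RSV, against 6.17 ± 0.633 and 6.52 ± 0.807 CPM with CSAA and CGA. Both genes thus had the lower means in the PTS rats. Emp3, a tetraspan membrane protein, and Fam43a had the lower means with RSV, at 5.82 ± 1.09 and 5.13 ± 1.05 CPM, close to the PTS means of 6.34 ± 0.506 and 5.18 ± 0.255 CPM. Klhdc3, a substrate receptor of a cullin ubiquitin ligase, differed by -0.34 on the log2 scale (SE 0.0907), and Fam53b by -0.42 (SE 0.11). One further gene stood out by the separation of the groups and was chosen after its values were seen: Fbxo46, an F-box protein, was the only one of the 16734 genes (0.00598%) in which all 9 stilbene rats (1.71 to 2.31 CPM) lay below all 10 others (2.45 to 3.51 CPM), with a log2 fold change of -0.44 (SE 0.0937). No gene had all 9 stilbene rats above all others.

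**Figure D1:**
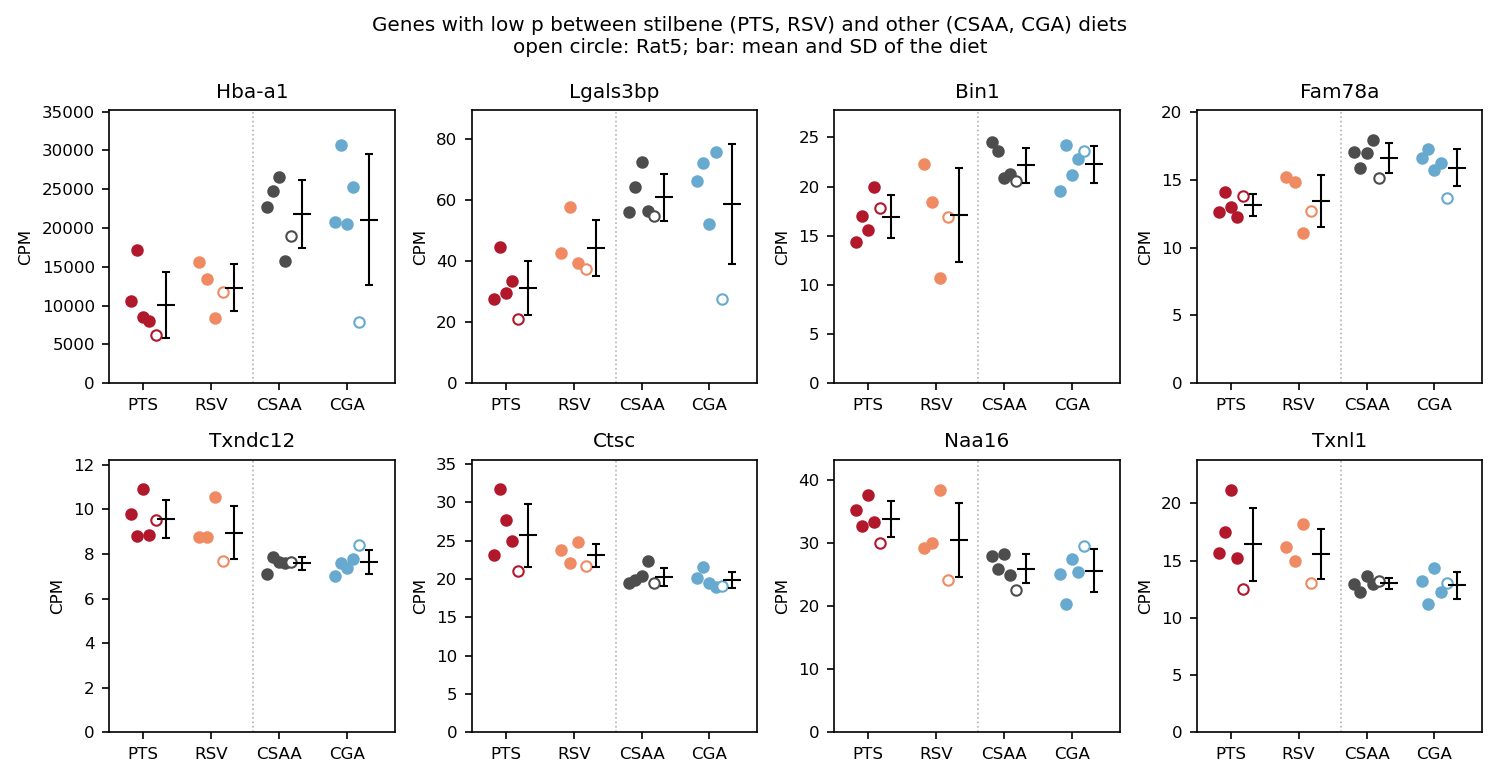
Level in CPM (y axis) of 8 genes in each rat, by diet (PTS, RSV, CSAA, CGA on the x axis). Each point is a rat, open circles are the Rat5 libraries, and bars give the mean and SD of a diet; CGA Rat5 sits at 7859 CPM for Hba-a1 and 27.4 CPM for Lgals3bp, within the stilbene range, and the upper panels show genes lower and the lower panels genes higher in stilbene rats.

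The 12 genes with the lowest p on the higher side differed less, with log2 fold changes of 0.19 to 0.33. Again all 12 had the same sign in the 4 single differences, which are parts of the pooled one that picked them. By diet means, 28.3% of all genes were higher with both stilbenes than with both other diets. Txndc12, a thioredoxin-domain oxidoreductase of the endoplasmic reticulum, ran from 7.68 to 10.9 CPM (median 8.84) in stilbene rats and from 7.01 to 8.42 CPM (median 7.62) in non-stilbene rats (log2 fold change 0.29, SE 0.0652). In 8 of 9 stilbene rats the level exceeded that of every non-stilbene rat. Ctsc, the protease cathepsin C that activates serine proteases of leukocyte granules, ran from 21.0 to 31.7 CPM (median 23.9) in stilbene rats and from 19 to 22.3 CPM (median 19.7) in non-stilbene rats (log2 fold change 0.29, SE 0.0701). Naa16, an auxiliary subunit of an N-terminal acetyltransferase, ranged from 24.2 to 38.3 CPM (median 32.7) in stilbene rats and from 20.4 to 29.5 CPM (median 25.7) in non-stilbene rats (log2 fold change 0.33, SE 0.0842). The groups overlapped for both of these genes, and 6 and 7 stilbene rats lay above the whole non-stilbene range.

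Txnl1, a thioredoxin-like partner of the proteasome, averaged 16.4 ± 3.18 CPM with PTS and 15.6 ± 2.16 CPM with RSV, against 13 ± 0.502 CPM with CSAA and 12.8 ± 1.15 CPM with CGA. Ergic2, a protein of the compartment between endoplasmic reticulum and Golgi, had a log2 fold change of 0.30 (SE 0.089). Rcn1, a calcium-binding protein of the endoplasmic reticulum, had one of 0.32 (SE 0.0954), with a larger mean in RSV rats (6.97 ± 1.36 CPM) than in PTS rats (6.35 ± 0.512 CPM). Rars1, the arginyl-tRNA synthetase, reached 0.27 (SE 0.0755). The signalling genes Crk, an adaptor of tyrosine kinase pathways, and Pik3c2a, a class II phosphoinositide kinase, reached 0.20 (SE 0.0547) and 0.19 (SE 0.0507), and the remaining genes of the ranking were Carf, Btbd1 and Zmym5.

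Hemoglobin had the list median farthest from 0 of all lists examined. All 8 hemoglobin genes tested were lower in stilbene rats at an unadjusted p under 0.05, against 4.71% of all genes, with a median log2 fold change of -0.85 against 0.03 over all genes, and 0 of the 8 passed the FDR limit. These genes share sequence, and the reads of near-identical copies can be split between them, so they are not 8 separate measurements. Together, hemoglobin genes took 4.85% to 15.1% of all counts in stilbene rats (median 10.3%) and 7.51% to 20.7% in non-stilbene rats (median 16.8%). The lowest non-stilbene value belonged to CGA Rat5. Among the 15 rats without Rat5 libraries the shares were 4.85% to 15.1% in stilbene rats and 13.6% to 20.7% in non-stilbene rats, and both the highest stilbene rats, RSV Rat1 (15.1%) and PTS Rat2 (14.9%), still lay inside the other group's range.

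**Figure D2:**
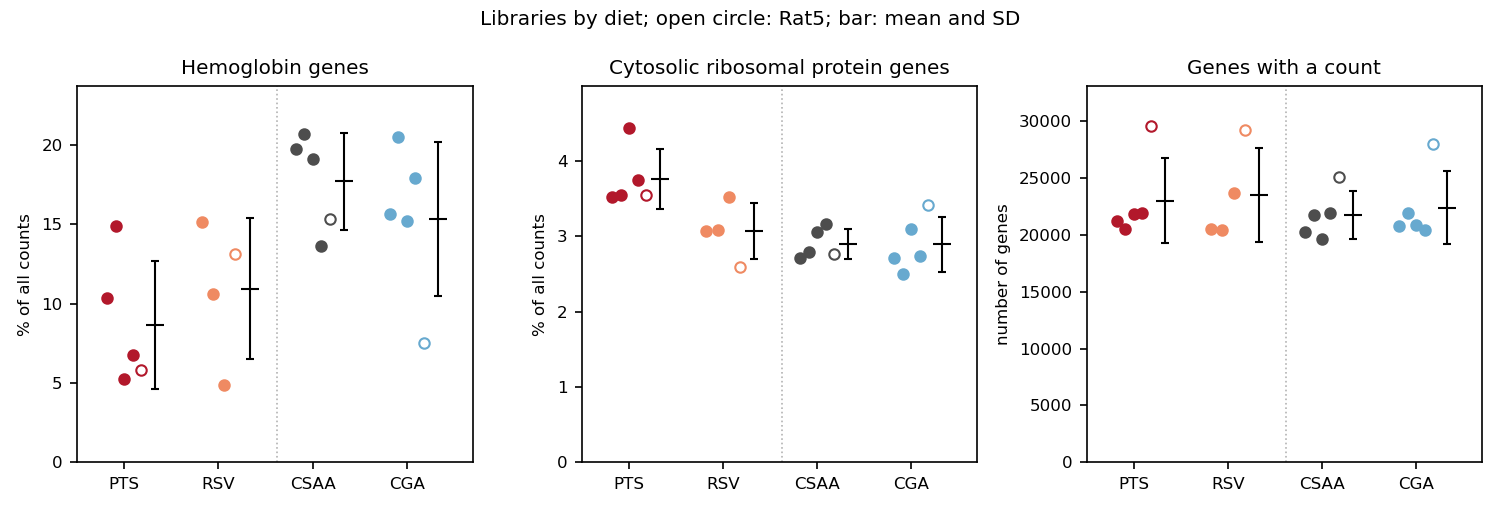
Share of all counts held by hemoglobin genes and by cytosolic ribosomal protein genes (% of counts), and number of genes with a count, for each rat by diet. Open circles are the Rat5 libraries and bars give mean and SD; hemoglobin shares were 5.25% to 14.9% with PTS and 4.85% to 15.1% with RSV, and the Rat5 libraries had the most genes with a count in every diet.

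The alpha-globin gene Hba-a1 measured 6207 to 17202 CPM (median 10557) in stilbene rats and 7859 to 30740 CPM (median 21784) in non-stilbene rats, a log2 fold change of -0.95 (SE 0.246). Every stilbene rat lay below the non-stilbene median, and CGA Rat5 was the only non-stilbene rat under 15744 CPM. Its copy Hba-a2 gave -0.91 (SE 0.245) and the adult beta-globin gene Hbb -0.85 (SE 0.339). Hbb spread most, from 10192 to 55881 CPM in stilbene rats and from 16580 to 69599 CPM in non-stilbene rats. Hba-a3 (-1.32, SE 0.417) and the theta-type gene Hbq1b (-0.53, SE 0.187) were lower at far smaller levels, 213 and 9.59 CPM on average in stilbene rats and 531 and 13.8 CPM in non-stilbene rats. In the single differences the list median was -1.12 for PTS minus CSAA, -0.76 for PTS minus CGA, -0.86 for RSV minus CSAA and -0.55 for RSV minus CGA, with all 8 genes below 0 in each. These differences share diets and are not independent of each other. Leaving out any 1 rat moved the fold change of Hba-a1 between -1.05 (without CGA Rat5) and -0.87 (without PTS Rat5).

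Other genes of red cell formation moved little beside the globins. Heme synthesis genes had a median log2 fold change of 0.03 and 0 of 17 at an unadjusted p under 0.05. Among 23 genes of the red cell membrane and of reticulocytes the median was -0.09 (-0.14 to -0.01 on leaving out 1 rat, nearest 0 without CSAA Rat3), and 2 were lower: Slc4a1, the anion exchanger band 3, at 1019 to 3084 CPM (median 2400) in stilbene rats and 1337 to 4343 CPM (median 3175) in non-stilbene rats (-0.50, SE 0.214), and Ank1, the ankyrin that ties band 3 to the cytoskeleton, at -0.42 (SE 0.18). Of 12 erythroid transcription factors, Gfi1b (-0.49, SE 0.167) and Zfpm1, the cofactor of GATA1 (-0.19, SE 0.088), were lower, and the list median was -0.06. The share of lower genes in these 3 lists was 0%, 8.70% and 16.7%, against 4.71% of all genes.

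Interferon-stimulated genes were shifted down on average, but mostly in the PTS rats. Of 73 tested, 14 were lower (19.2%) and 2 higher (2.74%) at an unadjusted p under 0.05, against 4.71% and 4.38% of all genes, and the median log2 fold change was -0.17. The list median was -0.29 for PTS minus CSAA and -0.38 for PTS minus CGA, and 0.04 for both RSV minus CSAA and RSV minus CGA. Of the 73 genes, 62 and 67 were below 0 in the PTS differences, and 30 and 29 in the RSV differences. The pooled median therefore stood for 2 diets with different values. In all 4 differences, 18 of the 73 genes were below 0. By diet means, 22.7% of all genes were likewise lower with both stilbenes than with both other diets, a share near that of the list.

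Genes low with both stilbenes included Lgals3bp, Ly6e, Bst2 and Shisa5, named for their pooled values. As given above, the share of such genes in the list was near that of all genes. Lgals3bp had log2 differences of -0.96 (PTS minus CSAA), -0.91 (PTS minus CGA), -0.46 (RSV minus CSAA) and -0.41 (RSV minus CGA). In this edgeR fit of all diets, its RSV differences had unadjusted p of 0.0743 and 0.109. Ly6e, an interferon-inducible surface protein anchored in the membrane by a lipid, ran from 7.10 to 11.9 CPM (median 9.90) in stilbene rats and from 9.18 to 17.7 CPM (median 13.4) in non-stilbene rats (-0.43, SE 0.112). Bst2, or tetherin, which holds budding virus at the cell surface, was expressed at only 1.5 ± 0.754 CPM in stilbene rats and 2.78 ± 0.832 CPM in non-stilbene rats (-0.89, SE 0.267). Shisa5, a protein of the endoplasmic reticulum, gave -0.34 (SE 0.0953). All 4 genes had the larger differences with PTS. With RSV, Ly6e gave -0.37 against CSAA and -0.31 against CGA. Against CGA, the RSV differences of Bst2 and Shisa5 were -0.76 and -0.21. Upstream, 3 of 18 genes of interferon receptors and JAK-STAT signalling were lower (16.7%, against 4.71% of all genes): the transcription factors Stat5a (-0.20, SE 0.0712) and Stat6 (-0.33, SE 0.126) and the cytokine signalling inhibitor Socs2 (-0.33, SE 0.142). On the other side stood Ifitm1 (0.33, SE 0.136) and Ifitm2 (0.25, SE 0.101), membrane proteins that block virus entry, which were above 0 in all 4 differences.

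Ifi27, a mitochondrial protein strongly induced by interferon, had a low mean in the PTS rats and not in the RSV rats. It averaged 72.8 ± 26.5 CPM with PTS and 153 ± 48.6 CPM with RSV, against 154 ± 21.0 CPM with CSAA and 140 ± 32.2 CPM with CGA. The pooled log2 fold change was -0.44 (SE 0.238), not past the unadjusted limit. PTS minus RSV was -1.07, with an unadjusted edgeR p of 0.000704 (adjusted p = 1.00). Adar, the RNA-editing enzyme (-0.35, SE 0.116), Rnf213, a giant ubiquitin ligase (-0.44, SE 0.194), and Trim25, a ubiquitin ligase of RNA sensing (-0.40, SE 0.158), leaned the same way, with PTS differences of -0.53 to -0.78 and RSV differences of -0.10 to -0.17. Irf7, the regulator of the interferon response, was lower in the mean at 878 CPM in stilbene rats against 1130 CPM in non-stilbene rats, a difference that did not pass the unadjusted limit (log2 fold change -0.36).

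The promoters of 3 of these genes are shown because they carry the shared element of the list and differ in whether RSV rats had low levels. The sequences are RefSeq promoters on build GRCr8, from 250 bases before to 50 after the gene start; the counts were made on another build. Capitals mark matches to GAAANNGAA, the core of the interferon-stimulated response element, searched on both strands.
Lgals3bp (chr10:104127799-104128098, minus strand): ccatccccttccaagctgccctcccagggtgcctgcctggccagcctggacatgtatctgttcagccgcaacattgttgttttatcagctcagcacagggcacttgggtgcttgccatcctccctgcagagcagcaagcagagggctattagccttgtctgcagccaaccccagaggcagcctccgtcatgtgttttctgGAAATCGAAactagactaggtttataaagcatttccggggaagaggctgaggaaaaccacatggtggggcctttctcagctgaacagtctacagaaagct
Bst2 (chr16:18254918-18255217, minus strand): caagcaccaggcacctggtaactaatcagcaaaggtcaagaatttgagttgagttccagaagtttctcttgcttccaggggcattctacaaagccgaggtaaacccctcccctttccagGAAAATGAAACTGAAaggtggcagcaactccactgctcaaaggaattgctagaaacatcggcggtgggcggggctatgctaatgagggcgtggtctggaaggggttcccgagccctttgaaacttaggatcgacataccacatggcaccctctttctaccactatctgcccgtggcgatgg
Ifi27 (chr6:128355062-128355361, plus strand): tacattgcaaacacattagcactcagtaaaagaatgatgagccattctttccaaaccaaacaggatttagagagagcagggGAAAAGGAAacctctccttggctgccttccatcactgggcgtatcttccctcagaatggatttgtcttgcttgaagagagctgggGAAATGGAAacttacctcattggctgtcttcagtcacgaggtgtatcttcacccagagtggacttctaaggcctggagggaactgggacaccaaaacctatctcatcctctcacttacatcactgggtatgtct

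Lgals3bp held 1 match, starting 50 bases before the gene start. Bst2 held 2 overlapping matches and Ifi27 held 2 separate ones. Of the 73 interferon-stimulated genes, 57 were found by symbol in the RefSeq promoters and 38 of these held a match, against 9.71% of all 33469 promoters. The 3 promoters were picked because they hold the element, so its presence in them does not bear on how the diets differed. Of the other genes named as low with both stilbenes, Shisa5 was among the 38. Ly6e was not, for lack of either a match or a promoter found by symbol. A match is a description of the letters only. For the hemoglobin list, 7 of 8 genes were found, 0 held the GATA factor motif AGATAA (both strands, in 11.6% of all promoters) and 1 held the CACC box bound by the erythroid factor Klf1 (CCACACCC, both strands, in 3.22% of all promoters). That gene was Hbb, and its promoter is shown for the position of the box, in capitals.
Hbb (chr1:167663672-167663971, minus strand): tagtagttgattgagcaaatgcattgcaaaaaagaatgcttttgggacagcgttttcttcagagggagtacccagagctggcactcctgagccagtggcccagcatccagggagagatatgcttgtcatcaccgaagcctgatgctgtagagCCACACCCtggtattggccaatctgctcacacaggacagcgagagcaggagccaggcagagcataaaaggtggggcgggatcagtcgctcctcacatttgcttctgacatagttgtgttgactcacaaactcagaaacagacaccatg

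Among leukocyte markers, the list medians of B and T cell genes were below 0 in all 4 single differences, while those of neutrophil and NK cell genes were above 0 with PTS and nearer 0 with RSV. B cell markers had a median log2 fold change of -0.24, with 6 of 20 lower (30.0%, against 4.71% of all genes) and 18 of 20 below 0. Cd37, a tetraspanin of B cells, ran from 5.57 to 9.04 CPM (median 7.23) in stilbene rats and from 6.58 to 11.5 CPM (median 9.17) in non-stilbene rats (-0.33, SE 0.109). Fcmr, the receptor for IgM, gave -0.43 (SE 0.154). The B cell medians were wider with RSV (-0.26 and -0.47 against CSAA and CGA) than with PTS (-0.06 and -0.24 against the same diets). T cell markers had a median of -0.12 with 4 of 22 lower (18.2%), led by Cd6 and Cd5, inhibitory receptors on T cells, at -0.28 (SE 0.0911) and -0.17 (SE 0.0648). Without Rat5 libraries 10 T cell and 11 B cell markers had an unadjusted p under 0.05, where 10.5% of all genes were lower.

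Neutrophil markers had a median of 0.24 but 1 of 18 higher (5.56%, against 4.38% of all genes), Fpr2, a formyl peptide receptor (0.56, SE 0.245), and 1 lower (5.56%, against 4.71% of all genes), Selplg, the ligand of P-selectin (-0.28, SE 0.115). The neutrophil medians were 0.25 and 0.42 for PTS against CSAA and CGA, and -0.03 and 0.17 for RSV against the same diets. The pooled median was 0.07 without PTS Rat2 and 0.10 without PTS Rat3. Fpr2 had log2 differences of 0.73 and 0.92 with PTS against CSAA and CGA, and 0.05 and 0.23 with RSV. NK cell markers had a median of 0.12 (0.07 without PTS Rat3), at 0.19 in both PTS differences and 0.00 and 0.06 for RSV against CSAA and CGA. Of the 18, 1 was higher and 2 were lower (5.56% and 11.1%, against 4.38% and 4.71% of all genes). The receptor chain Klrd1 was higher (0.34, SE 0.118) and the IL-2 receptor chain Il2rb was among the lower (-0.29, SE 0.116). The 2 lower monocyte markers of 19 (10.5%, against 4.71% of all genes) were Nr4a1, a nuclear receptor of patrolling monocytes (-0.64, SE 0.168), and Cd68, a lysosomal protein of phagocytes (-0.40, SE 0.165). They went against the rest of their list, in which 12 of 19 were above 0 and the median was 0.06. Eosinophil and basophil markers stayed at a median of 0.00 with 0 of 13 past an unadjusted p of 0.05. Platelet markers had a median of -0.15, which was -0.08 without CSAA Rat3, -0.06 without CSAA Rat4 and -0.09 without RSV Rat3. The platelet medians depended on the reference: -0.25 with PTS and -0.23 with RSV against CSAA, and -0.045 and -0.02 against CGA. Among the platelet markers 1 of 23 was lower (4.35%, against 4.71% of all genes), Clu, which codes for the chaperone clusterin (-0.41, SE 0.167). Clu gave -0.69 with PTS and -0.46 with RSV against CSAA, and -0.32 and -0.09 against CGA. The part of cell composition in the differences above was not tested.

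**Figure D3:**
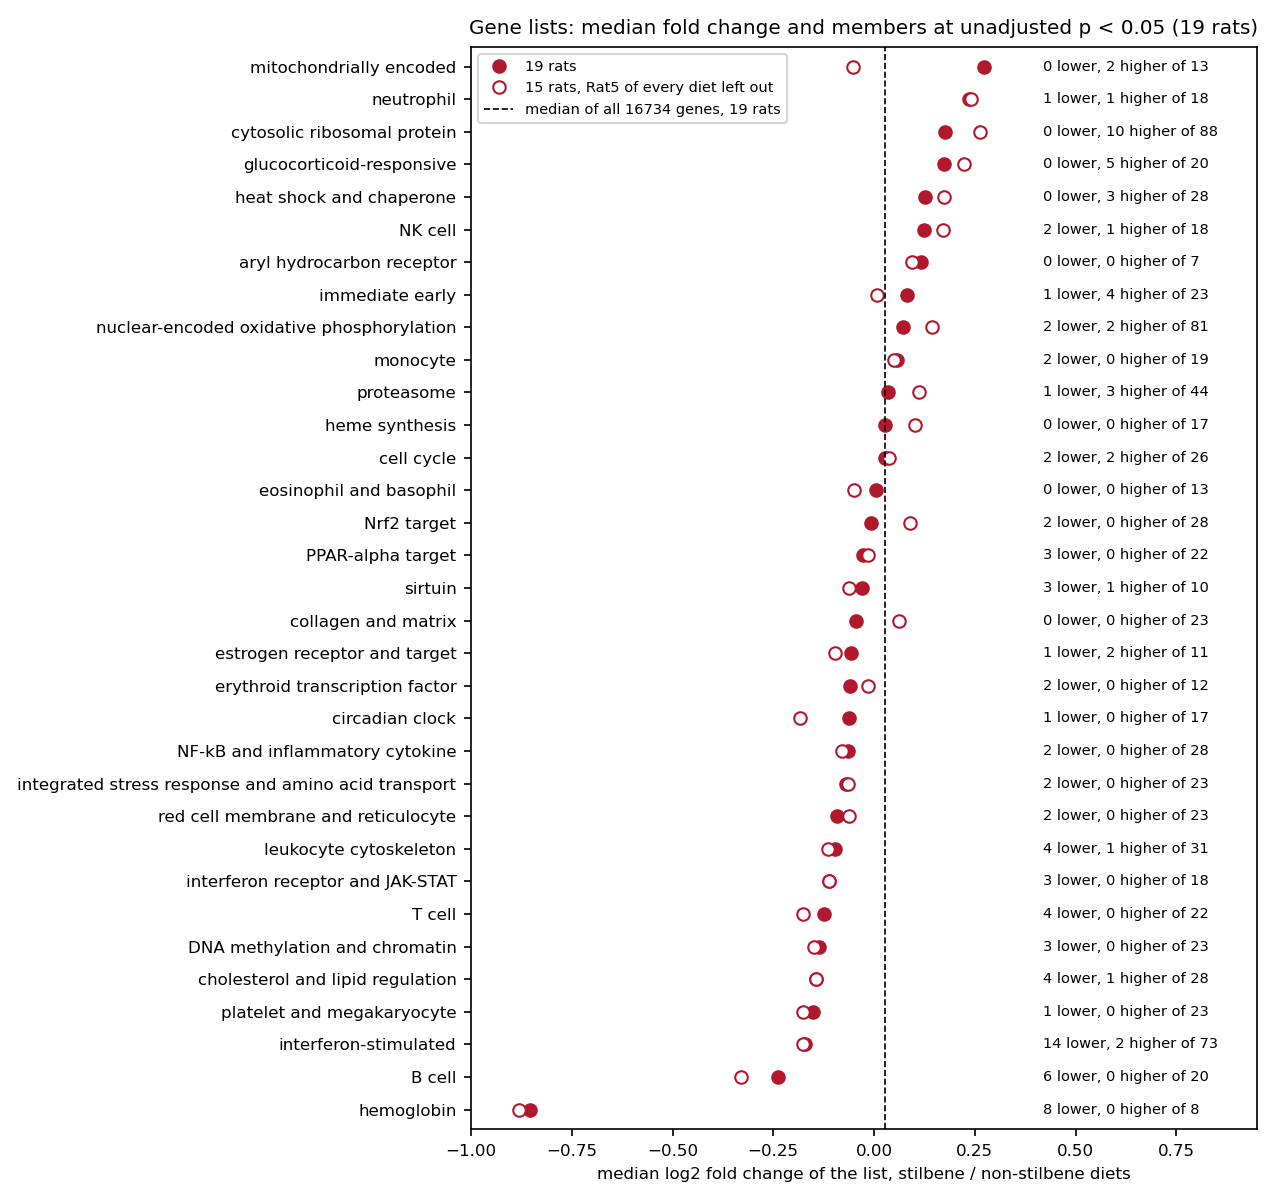
Median log2 fold change, stilbene over non-stilbene diets (x axis), of each gene list (y axis), in 19 rats (filled) and in the 15 rats without Rat5 libraries (open), with the median of all genes as a dashed line. Text at the right gives the members at an unadjusted p under 0.05; hemoglobin stands at -0.85 and mitochondrially encoded genes move to -0.05 without the Rat5 libraries.

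Pathways tied to stilbenes in other systems had list medians near 0 for Nrf2 targets and sirtuins. Nrf2 targets had a median of -0.01, with 2 of 28 lower (7.14%, against 4.71% of all genes) and 0 higher. Nqo1 and Hmox1, the antioxidant enzymes used most often as its readout, had log2 fold changes of 0.20 (SE 0.151) and -0.07 (SE 0.165). The lower members were Gstm1, a glutathione transferase (-0.35, SE 0.108), and Ftl1, the ferritin light chain (-0.44, SE 0.178). Ftl1 gave -0.67 with PTS and -0.58 with RSV against CSAA, and -0.26 and -0.17 against CGA. Among 10 genes of the sirtuin group the median was -0.03, with 3 lower (30.0%, against 4.71% of all genes) and 1 higher (10.0%, against 4.38%). Sirt6, a nuclear deacetylase, ran from 2.12 to 3.69 CPM (median 2.36) in stilbene rats and from 2.72 to 4.17 CPM (median 3.24) in non-stilbene rats (-0.39, SE 0.11), and 7 of 9 stilbene rats lay below all others. Sirt5, a mitochondrial desuccinylase, and Foxo1, a sirtuin substrate, were lower too (-0.24, SE 0.1, and -0.46, SE 0.207), and Sirt4, another mitochondrial sirtuin, was higher (0.45, SE 0.194). Sirt1 was not analysed here.

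Genes of aryl hydrocarbon receptor signalling had 0 of 7 past an unadjusted p of 0.05. The pooled value of Aldh3a1, its aldehyde dehydrogenase target, rested on a single library, and its sign changed without that rat. RSV Rat5 held 47.2 CPM against a median of 0.250 CPM in stilbene rats. The 2 stilbenes had opposite signs for Aldh3a1. The log2 differences were -2.84 and -2.80 with PTS against CSAA and CGA, and 2.56 and 2.60 with RSV against the same diets. Of 11 genes of estrogen signalling, 2 were higher (18.2%, against 4.38% of all genes) and 1 lower (9.09%). The receptor Esr1 (1.06, SE 0.498) and its target Greb1 (0.80, SE 0.383) were higher at levels under 1 CPM on average, but neither passed the unadjusted limit without the Rat5 libraries. Ncoa2, a nuclear receptor coactivator, was lower (-0.32, SE 0.117). Of 22 PPAR-alpha targets 3 were lower (13.6%, against 4.71% of all genes), among them Ech1, an enzyme of fatty acid oxidation (-0.21, SE 0.0640), and Ucp2, a mitochondrial carrier (-0.61, SE 0.246). NF-kB and cytokine genes had a median of -0.06 with 2 of 28 lower (7.14%), Nfkbie and Traf1, an inhibitor and an adaptor of that pathway (-0.30, SE 0.12, and -0.27, SE 0.111). Slc7a5, the large neutral amino acid transporter, differed more: 16.3 to 52.8 CPM (median 32.2) in stilbene rats and 21.6 to 68.7 CPM (median 53.9) in non-stilbene rats (-0.73, SE 0.219). Its lowest non-stilbene value was again CGA Rat5. The log2 differences of Slc7a5 were larger with PTS (-1.06 and -0.88 against CSAA and CGA) than with RSV (-0.57 and -0.39 against the same diets). Of 28 genes of cholesterol and lipid regulation 4 were lower (14.3%), including Srebf2, the regulator of sterol synthesis (-0.44, SE 0.148), and 1 was higher (3.57%), Idi1, an isomerase of isoprenoid synthesis (0.24, SE 0.106). The median of this list was -0.14, and -0.04 without CSAA Rat5.

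Glucocorticoid-responsive genes leaned upward with both stilbenes. Of 20 tested, 5 were higher (25.0%, against 4.38% of all genes) and 0 lower at an unadjusted p under 0.05, with a median of 0.17 (0.11 without RSV Rat5). The medians of the single differences were 0.12 (PTS minus CSAA), 0.23 (PTS minus CGA), 0.12 (RSV minus CSAA) and 0.21 (RSV minus CGA). Pik3ip1, an inhibitor of PI3-kinase, ran from 8.77 to 19.7 CPM (median 12.2) in stilbene rats and from 8.97 to 12.0 CPM (median 10.6) in non-stilbene rats (0.37, SE 0.124), and the other 4 were Tsc22d3 (GILZ, 0.48, SE 0.201), the chemokine receptor Cxcr4 (0.69, SE 0.298), Rgs2, a regulator of G protein signalling (0.25, SE 0.097), and Klf9, a transcription factor (0.23, SE 0.102). Immediate early genes were mixed, with 4 of 23 higher (17.4%) and 1 lower (4.35%, against 4.71% of all genes): Ier2 was higher (0.52, SE 0.167) and Zfp36, the mRNA-destabilizing protein tristetraprolin, lower (-0.50, SE 0.168).

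Cytosolic ribosomal protein genes and chaperones had list medians above 0 with PTS and near 0 with RSV. Cytosolic ribosomal protein genes had a median of 0.18, with 10 of 88 higher (11.4%, against 4.38% of all genes) and 74 above 0. Without PTS Rat3 this median was 0.08. Their medians were 0.24 and 0.32 for PTS against CSAA and CGA, and -0.04 and 0.04 for RSV against the same diets. Rps24 gave 0.37 (SE 0.138) and Rps3a 0.32 (SE 0.14). Many ribosomal protein genes have near-identical processed copies, so the values of single ones are uncertain. Chaperones had a median of 0.13 (0.04 without PTS Rat3) with 3 of 28 higher (10.7%), among them Dnajc3, a co-chaperone of the endoplasmic reticulum (0.16, SE 0.0636), and 10 of 28 without Rat5 libraries, where 7.99% of all genes were higher. Mitochondrially encoded genes had a median of 0.27 with 19 rats, but -0.05 without the Rat5 libraries, and RSV Rat5 held 1.77% of its counts in them, against 1.13% in the next stilbene rat.

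**Figure D4:**
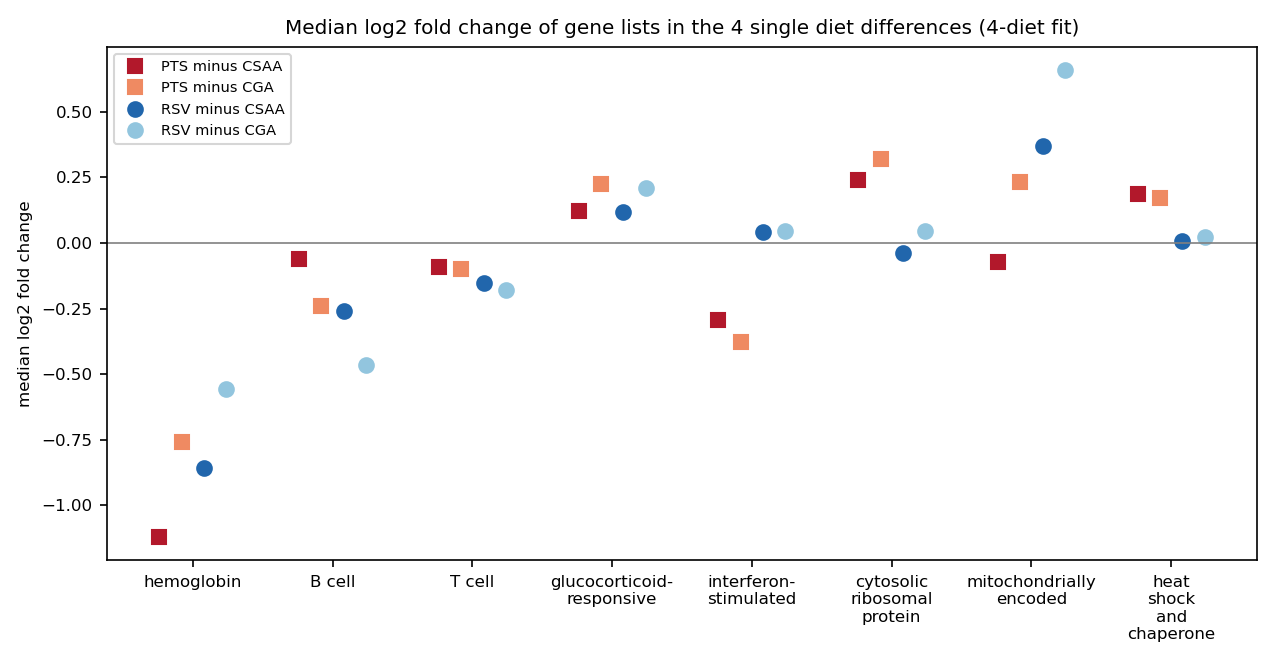
Median log2 fold change (y axis) of 8 gene lists in the 4 differences between a stilbene diet and a diet without one (squares PTS, circles RSV). Hemoglobin lay at -1.12 to -0.55 and glucocorticoid-responsive genes at 0.12 to 0.23 in all 4, while interferon-stimulated genes lay at -0.29 and -0.38 with PTS and at 0.04 with RSV.

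Whether the stilbenes acted alike can be read only in part from the pooled values. Between PTS and RSV, edgeR called 0 of 16734 genes (0% called), and 512 genes (3.06%) had an unadjusted p under 0.05; a difference that misses the threshold does not show that the compounds act alike. Each stilbene was also set against a different reference, so that no rat was in both differences. Over 16734 genes, which are not independent replicates, the log2 fold changes of PTS minus CSAA and RSV minus CGA correlated with r = 0.22 (rho = 0.29). For PTS minus CGA and RSV minus CSAA the correlation was r = 0.29 (rho = 0.35). These values rested on the Rat5 libraries, being -0.17 and -0.31 without PTS Rat5 and 0.37 and 0.58 without CGA Rat5. Of the 16734 genes, 1126 had an unadjusted p under 0.05 in PTS minus CSAA and 323 in RSV minus CGA. Of these, 7 were lower and 8 higher in both (together 1.33% of the 1126 and 4.64% of the 323), and 3 had opposite directions. The same limit was passed by 774 in PTS minus CGA and 345 in RSV minus CSAA. Of these, 19 were lower and 7 higher in both (together 3.36% of the 774 and 7.54% of the 345), and 2 had opposite directions. Whether such overlaps exceed those of unrelated gene sets of these sizes was not tested. All 8 hemoglobin genes, which share sequence and are not 8 separate measurements, were below 0 on both sides of both pairs. The medians were -1.09 and -0.55 in one pair and -0.75 and -0.86 in the other. At an unadjusted p under 0.05, 5 of the 8 were lower in PTS minus CSAA and 0 in RSV minus CGA. In PTS minus CGA and in RSV minus CSAA, 3 were.

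None of the first 5 principal components of the 19 rats separated the stilbene split at an adjusted p under 0.05. Missing that limit does not show that these axes are free of it. Among them, PC2 (12.3% of the variance) had the largest share between stilbene and non-stilbene rats, 16.7%, with an exact two-sided permutation p of 0.0837 over 92378 splits (adjusted p = 0.418 over the 5).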

How the data were processed

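The deposited values were raw read counts per Ensembl gene, which the authors made from single-end 50 bp reads of a stranded library kit with FastQC 0.11, Trimmomatic 0.32, the FastX-Toolkit, TopHat2 2.1 on build rn6 and Rsubread; their own tests of single diets used DESeq2 1.30. Whether counting used strand is not given in the sources at hand, so reads of a gene and its antisense partner may be mixed. Genes with at least 2 reads in at least 15 of 19 libraries were tested with edgeR 4.0.16 in R 4.3.3 (TMM, quasi-likelihood, two-sided, Benjamini-Hochberg over all genes). DESeq2 1.42.0 and limma 3.58.1, other filters, scalings, references and omitted rats were alternatives. The rats are separate animals per the labels. Named genes were the 12 per direction with the lowest p at a mean of at least 5 CPM, the 2 of each list with the lowest p at a mean of at least 1 CPM, and Ifi27, Hba-a1, Nqo1 and Hmox1. Further list members are named from their unadjusted p. The comparison, members, lists and tests were chosen with earlier results of these data known. The promoter motifs were chosen after these values were seen, and the interferon motif was shortened by a base after a longer form had been searched. The edgeR fit was tested on simulated counts.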

Additional observations from a re-analysis of the deposited data

Results flagged for a closer look

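The levels of the 90 named genes and 5 library measures were screened for a rat far from the others of its group (Dixon's ratio of the gap to the range), which chance alone flags in about 1 of 20 groups; 21 of 190 groups had such a rat. In 13 of them CGA Rat5 was the lowest non-stilbene rat: Stat6 (ratio 0.721), Lgals3bp (0.631), Gfi1b (0.612), Ucp2 (0.572), Slc7a5 (0.563), Fam53b (0.56), Selplg (0.549), Myl12b (0.547), Slc4a1 (0.535), Ank1 (0.521), Hba-a1 (0.509), Ftl1 (0.502) and Hba-a2 (0.491). For Stat6, a signal transducer of interleukin-4, that rat held 35.3 CPM and the next 61.1 CPM. These genes share a library, so the ratios are not separate observations.

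RSV Rat5 was the highest stilbene rat for Ccnd1 (0.538; 8.15 CPM against 1.75 CPM in the next) and for the share of mitochondrially encoded counts (0.587), and the lowest for Fam43a (0.522). CSAA Rat5 was the lowest non-stilbene rat for Cebpe (0.5). In the other libraries, PTS Rat3 was lowest for Ncoa2 (0.509), PTS Rat4 lowest for Mbd3 (0.505), CSAA Rat4 highest for Rgs2 (0.519) and CGA Rat4 highest for Nqo1 (0.479).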

How the results depend on the processing

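No gene was called under any alternative but one: with the Rat5 libraries left out and a replicate block added, chosen after seeing the data, 13 genes were called, 11 of them lower, with Lgals3bp, Ly6e, Dpf2, Fam53b and Hba-a1 among the lower and Txnl1 and Ergic2 among the higher. Rat numbers were not taken as a pairing, because the labels state none and 19 of 27 same-numbered pairs, not every one, correlated above 0.1 (-0.30 to 0.77). All 6 Rat5 pairs did (0.44 to 0.77), as did 13 of the 21 others, and 9 of 19 rats correlated best with their own number. The column labels of the counts carry a further number that runs on from diet to diet within each of Rat1 to Rat4. For Rat5 it runs on over RSV, PTS and CGA, and the CSAA number stands apart. What this number stands for is not stated. The paper put several rats on each sequencing lane, and the labels do not say which. The replicate block alone called 0 genes, with 2237 at an unadjusted p under 0.05, against 1522 without it. Counts of lower and higher genes at that p were 789 and 733, and became 1759 and 1337 without the Rat5 libraries, 1883 and 1431 without them and with the block, 474 and 290 against CSAA alone, 239 and 245 against CGA alone, 1286 lower in limma, 1111 higher with a Rat5 term (chosen after seeing the data) and 2068 higher with no filter beyond 1 read, where 30.4% were lower instead of 51.8%. Leaving out 1 rat gave 532 to 1170 lower and 501 to 1312 higher genes, with 2321 in all without CGA Rat5, 2337 without RSV Rat5 and 1033 without RSV Rat3; 0 genes were called throughout. The correlations with separate references then ranged from -0.17 to 0.43 and from -0.31 to 0.58, and the lowest adjusted p of the principal components from 0.132 to 0.584.

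Signs changed for 3 of the 90 named genes. Aldh3a1 (1.46) was -0.72 in DESeq2 and -0.12 in the 4-diet fit, Hmox1 (-0.07) was 0.0331 without the Rat5 libraries, 0.0153 against CGA alone and 0.0177 without the Rat5 libraries and with the block. Leaving out 1 rat gave -0.75 to 1.87 for Aldh3a1, -0.13 to 0.96 for Ccnd1 and -0.20 to 0.0014 for Hmox1. The causes were not tested.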

Other observations

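Vasp, an actin regulator of leukocytes and platelets, differed by -0.24 (SE 0.0746) within a list of cytoskeleton genes in which Actb (-0.54, SE 0.204) and Myh9 (-0.47, SE 0.179) were also lower and Arpc3 was higher (0.21, SE 0.0935), at a list median of -0.10. Of the 31 genes of this list 4 were lower (12.9%) and 1 higher (3.23%), against 4.71% and 4.38% of all genes. Of 44 proteasome genes 1 was lower (2.27%) and 3 were higher (6.82%), shares not far from those of all genes. The lower gene was Psmd3, a subunit of the regulatory cap (-0.35, SE 0.11), and the base subunit Psmc6 was among the higher (0.22, SE 0.0854). Cry2, a circadian repressor, gave -0.29 (SE 0.112) and was the 1 lower gene of 17 in its list (5.88%, near the share of all genes). The chromatin genes Mbd3 and Kat2a gave -0.25 (SE 0.0814) and -0.31 (SE 0.12). Values with an SE are log2 fold changes of the edgeR fit. Each named gene had an unadjusted p under 0.05, and 0 passed the FDR limit.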
